A study of Mus musculus with 6 samples.

Results

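The genes described here are 38 solute carrier genes, nearly all of them for carriers of amino acids, taurine or small peptides or for subunits of such carriers. They were chosen by name, as the members of the SLC1, SLC3, SLC6, SLC7, SLC15, SLC16, SLC36, SLC38 and SLC43 solute carrier families listed for this set, and all 38 were found among the 23282 genes of the deposited colon table. RNA was sequenced from the colon of wild-type (WT) C57BL/6J mice, 8 weeks old. The PCN group (3 libraries, replicates 4, 5 and 6) received intraperitoneal pregnenolone-16α-carbonitrile at 40 mg/kg, a steroid that activates the rodent pregnane X receptor (PXR), as 3 injections 8 h apart, and colon was taken 8 h after the last. The labels give the other group (Veh, 3 libraries, replicates 3, 5 and 6) as control, and the study calls it vehicle; DMSO in corn oil is the solvent named for PCN. The labels do not state that the libraries came from separate mice, so each p-value reflects only library-to-library spread.

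Amino acid carriers work in layers. In intestinal epithelium, sodium- or proton-driven carriers of the apical membrane take up amino acids and peptides from the lumen, and exchangers and uniporters of the basolateral membrane pass them on to the blood. The heteromeric carriers consist of an SLC3 heavy chain, which brings the complex to the membrane, and an SLC7 light chain, which does the transport. Several carriers are also targets of ATF4, the transcription factor of the amino acid response, which binds a composite element containing the core TTGCATCA.

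That core was searched for on both strands, as TTGCATCA or TGATGCAA, in RefSeq promoters (250 bases before to 50 after a start, GRCm38.p6). Promoters were matched by symbol for 30 of the 38 transporters. The core lay in 3 of the 30 (10%), Slc7a11, Slc1a4 and Slc7a7, against 1.03% of the 27025 genes with a promoter. Among 25 other genes of the amino acid response it lay in 7 (28.0%), namely Aars, Atf3, Chac1, Fgf21, Iars, Nupr1 and Vldlr. The stretches around it are shown because of a library described further on, so this choice followed the values. That library stood apart in Slc7a11 and in other genes of that response, and a link with the core was not tested. All 3 stretches are printed 5′ to 3′ on the strand of the gene, with the core in capitals.
Slc7a11, chr3:50443628-50443704, minus strand: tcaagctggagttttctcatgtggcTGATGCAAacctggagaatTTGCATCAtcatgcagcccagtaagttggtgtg
Slc1a4, chr11:20332710-20332742, minus strand: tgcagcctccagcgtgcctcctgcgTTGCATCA
Slc7a7, chr14:54417938-54417970, minus strand: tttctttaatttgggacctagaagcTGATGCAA
Slc7a11 held 2 cores in opposite orientation, beginning 66 and 47 bases before its start, whereas the single cores of Slc1a4 and Slc7a7 ran across the annotated start. A match is only a run of letters, and binding was not measured here. Pairs of the nuclear receptor half-site AGGTCA or AGTTCA, as direct repeats spaced by 3 or 4 bases or everted repeats spaced by 6, were in 0 of the 30 genes. They were in 0.0148%, 0.0296% and 0.0111% of all genes with a promoter, so these letters were rare everywhere in such short windows. Sites farther upstream, or with other letters such as AGATCA, would be missed. The search therefore cannot decide whether these genes have PXR sites.

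The libraries held 21924026 to 25422856 counts, with 20538 to 20963 genes detected. Correlations of log2 CPM between libraries (CPM, counts scaled to library size by TMM) were 0.973 to 0.984 within a group and 0.969 to 0.982 between groups, so the ranges within and between groups overlapped. Colon epithelium markers summed to 37330 to 45960 CPM in PCN and 27270 to 34500 CPM in Veh. Muc2 was the largest part, with 20350 to 25740 CPM in PCN and 14070 to 17050 CPM in Veh. Of these 13 markers, 8 had a positive log2 fold change and 5 a negative one (median 0.065). Among small intestinal enterocyte markers, Lct and Fabp1 stayed at or under 0.628 CPM in every library. Others were abundant, with 262 to 366 CPM of Mgam and 161 to 254 CPM of Slc5a1. Veh replicate 3 carried 5.32 to 25.4 CPM of the pancreatic genes Cpa1, Cpb1, Prss2, Pnlip and Ctrb1, which were at or under 1.44 CPM in all others. Of the other listed acinar markers, Amy2a5 had 0.182 CPM in Veh replicate 3 and none elsewhere, and Cela1 had 37.2 to 70.3 CPM in PCN and 34.5 to 45.5 CPM in Veh, highest in PCN replicate 4. Several lists of markers of other cells leaned higher in PCN: 10 of 10 macrophage markers had a positive log2 fold change (median 0.49), as did 8 of 8 of B and plasma cells (median 0.97), 6 of 6 of smooth muscle (median 0.70) and 5 of 6 of fibroblasts (median 0.40), of which DESeq2 called Jchain and Col3a1 higher (adjusted p = 0.00237 and 0.0376), beside Muc2 of the epithelium (adjusted p = 0.0305). Others did not: 7 of 8 enteric glia and neuron markers were negative (median -0.14), as were 3 of 5 endothelial markers (median -0.02). The part of these cell types in the transporter values was not tested.

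The colon drew its transporter RNA from a few carriers. Levels between genes are compared as FPKM, which is per gene length, averaged over all 6 libraries. Slc6a14, the apical carrier of neutral and cationic amino acids known as ATB0,+, led with 117 FPKM, followed by the taurine carrier Slc6a6 (TauT) with 54.5 and the glutamine exchanger Slc1a5 (ASCT2) with 53.4. The fourth was Slc38a2 (SNAT2), a sodium-coupled carrier of small neutral amino acids, with 34.6 FPKM. Then came both heavy chains, Slc3a1 (rBAT) with 30.3 and Slc3a2 (CD98hc) with 26.8 FPKM. The 38 FPKM values summed to 429 to 494 in PCN and 476 to 493 in Veh libraries, and the 4 leading carriers made up 54.2 to 57.2% of that sum in PCN and 51.7 to 58.1% in Veh. Slc6a14 was the highest in 5 of the 6 libraries, while in Veh replicate 5 it had 78.5 FPKM against 85.2 for Slc6a6. Slc6a6 and Slc1a5 did not differ beyond their spread (46.6 ± 15.6 and 53.4 ± 1.53 FPKM in PCN, 62.4 ± 20.2 and 53.3 ± 4.09 FPKM in Veh; SD, n = 3 each). At the other end, Slc38a3 and Slc38a5 averaged 0.0385 and 0.0375 FPKM.

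**Figure D1:**
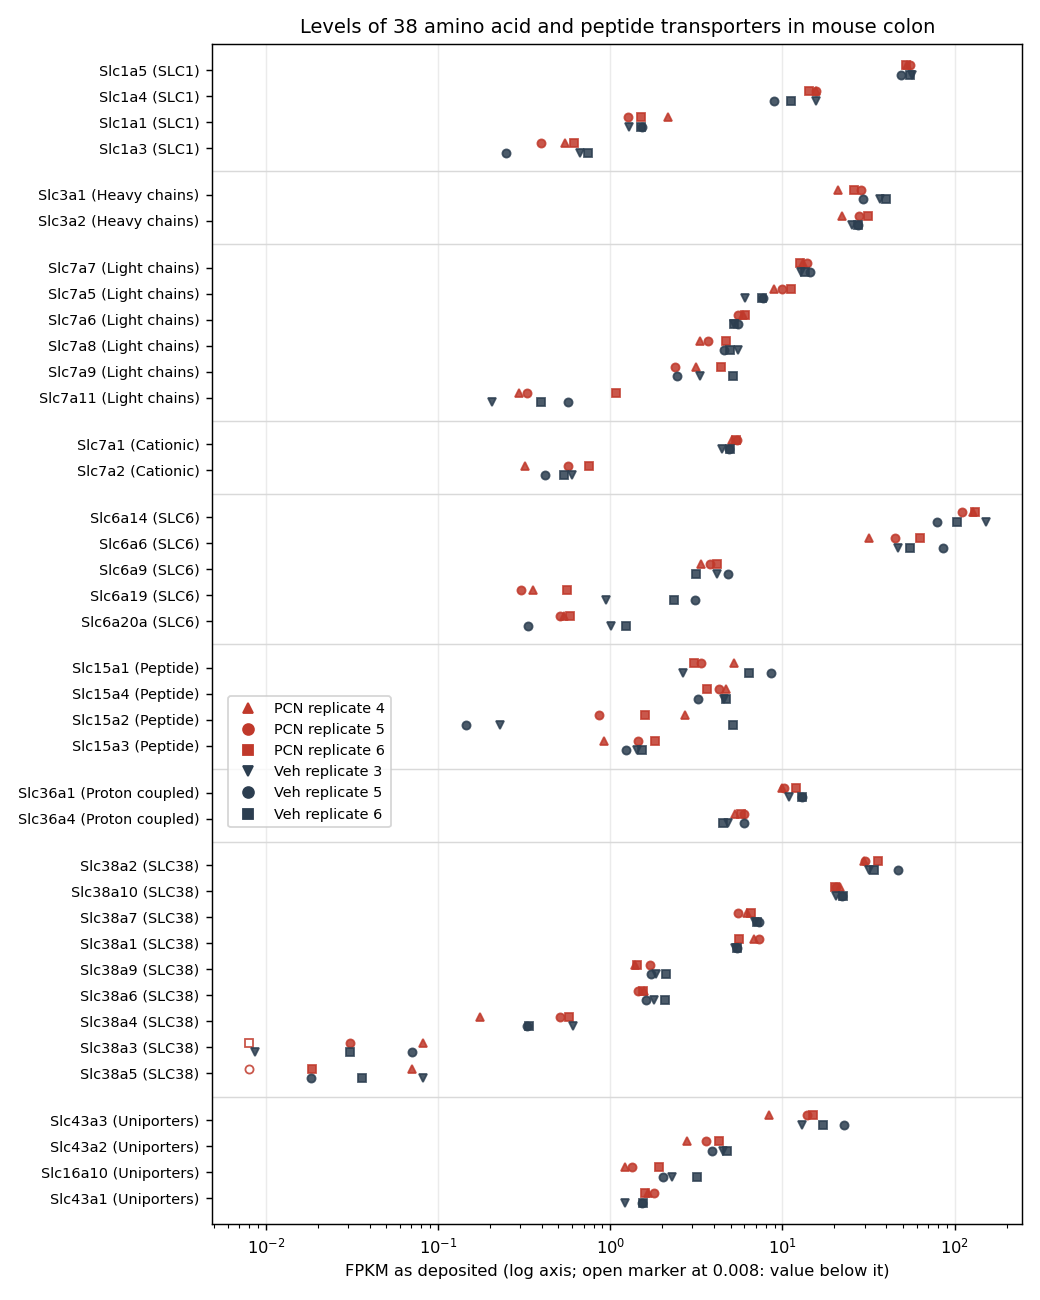
FPKM as deposited (log axis) of the 38 transporters in each of 3 PCN (red) and 3 Veh (dark) libraries, grouped by role and ordered by mean level within a role. Slc6a14 at 78.5 to 151 FPKM led in 5 of 6 libraries, Slc38a3 and Slc38a5 were near the detection limit, and of the 36 genes tested Slc15a2 and Slc6a19 spread most widely.

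PCN against Veh was then tested gene by gene. Of the 38 transporters, 36 passed the filter on low counts and 2, Slc38a3 and Slc38a5, did not: they had 1 to 11 and 0 to 4 counts per library. edgeR called none of the 36 at an adjusted p under 0.05 in either direction, where it called 0.0301% of 16586 genes higher and 0.00603% lower. DESeq2 called 0 transporters higher, against 1.03% of genes, and 1 lower (Slc6a19), against 0.259%. At an unadjusted edgeR p under 0.05 there were 3 higher (8.33%; Slc7a5, Slc7a1 and Slc38a1), against 6.25% of genes, and 4 lower (11.1%; Slc6a19, Slc3a1, Slc38a9 and Slc16a10), against 3.73%. The libraries of the groups did not overlap in 5 transporters higher in PCN (13.9%), against 8.69% of genes, and in 5 lower (13.9%), against 7.39%. The upward shares were nearer to the background than the downward ones, and each rested on only 3 to 5 genes. The median log2 fold change was -0.02 over the 36 transporters, with 17 positive and 19 negative, and 0.01 over all genes tested; without PCN replicate 6 the transporters' median was -0.20. The median absolute log2 fold change was 0.20 for the transporters and 0.17 for all genes, and single values ran from -2.35 (Slc6a19) to 0.58 (Slc7a11) (exact permutation tests of 3 against 3 cannot go below p = 0.1).

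**Figure D2:**
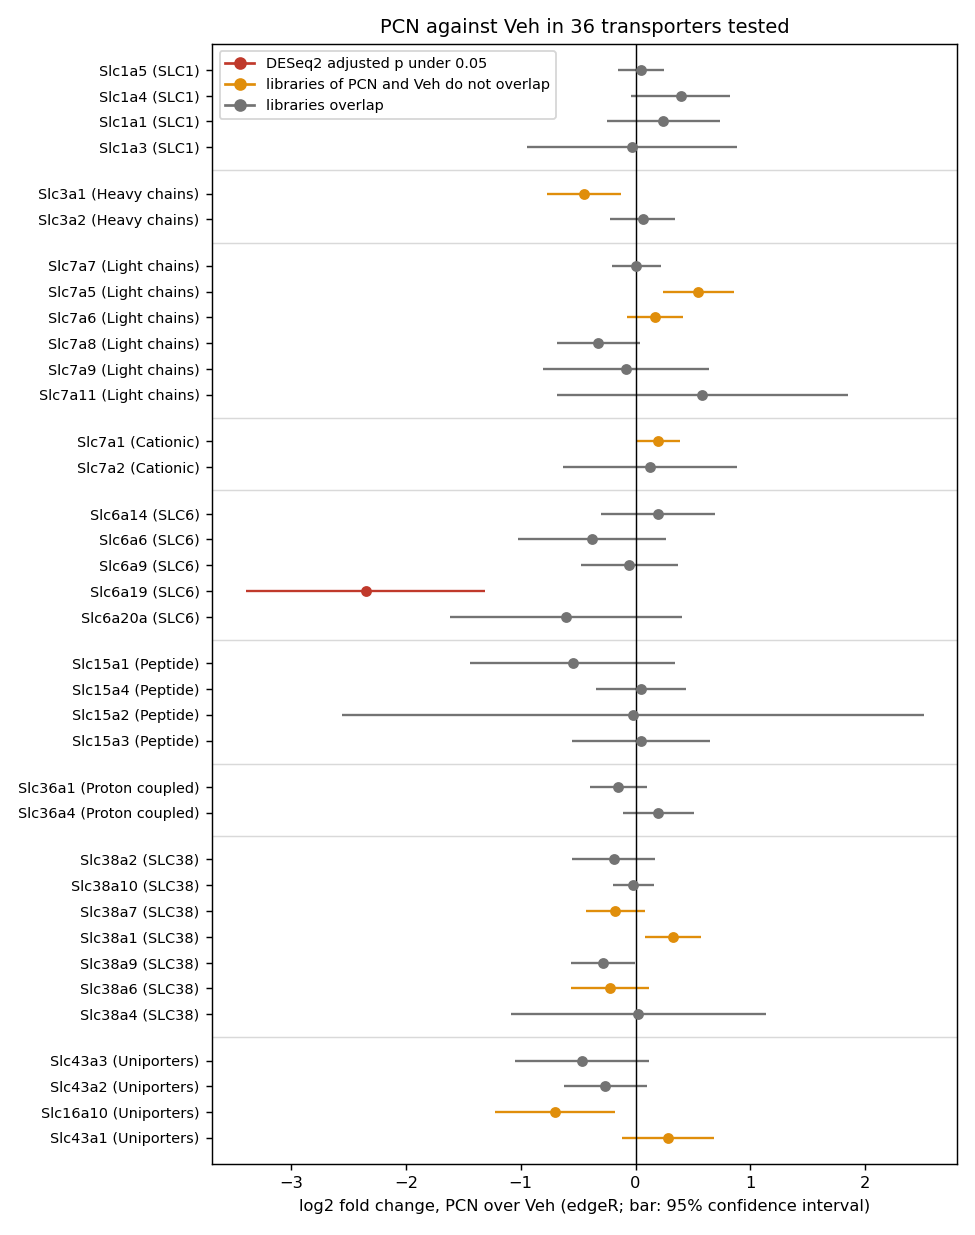
edgeR log2 fold changes, PCN over Veh, with 95% confidence intervals for the 36 transporters tested, by role. Slc6a19 at -2.35 is the single DESeq2 call; 9 more (orange) had groups that did not overlap, and the interval of Slc15a2 ran from -2.56 to 2.51.

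Among the SLC6 carriers, which use sodium and chloride, Slc6a19 differed most between the groups. It encodes B0AT1, the main apical carrier of neutral amino acids in small intestine and kidney, and lies on chromosome 13 (chr13:73679745-73704865, GRCm38). Slc6a19 had 1.81, 1.53 and 2.84 CPM in PCN replicates 4, 5 and 6, against 4.68, 15.6 and 11.3 CPM in Veh replicates 3, 5 and 6. All PCN libraries were below all Veh libraries, and Veh replicate 3 lay nearest to them. The means were 2.06 ± 0.690 CPM in PCN and 10.5 ± 5.49 CPM in Veh (SD, n = 3 each), from 37 to 67 counts in PCN and 103 to 378 in Veh. Slc6a19 fell by DESeq2 (log2 fold change -2.37, adjusted p = 2.1e-05), while edgeR gave -2.35 (SE 0.45, adjusted p = 0.190), so that the call depended on the tool. In DESeq2 it held without any 1 library (adjusted p 1.15e-11 to 0.00610); in edgeR it was reached without Veh replicate 3 (-2.70, adjusted p = 0.0394) and with the replicate number as a block (-2.65, adjusted p = 0.0216), but not without any other library (0.234 to 0.445). The antisense gene Slc6a19os was at or under 0.118 CPM.

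Markers of small intestinal enterocytes, cells known for B0AT1, were examined beside Slc6a19. Of 15 small intestinal enterocyte markers, 13 were tested, 9 with a negative log2 fold change. At an unadjusted edgeR p under 0.05, 0 were higher and 3 lower, Apoa1, Mttp and Treh, against 3.73% of all genes lower; these were also the 3 below Veh without overlap, against 7.39%. Apoa1, an apolipoprotein of enterocytes, fell by DESeq2 (adjusted p = 0.000951; edgeR adjusted p = 0.287), with 0.402, 0.619 and 1.65 CPM in PCN against 8.68, 1.94 and 9.22 CPM in Veh. Within Veh the orders differed, since replicate 5 had the most Slc6a19 and the least Apoa1. The summed level of the 15 markers was 687 to 900 CPM in PCN and 698 to 826 CPM in Veh, carried mostly by Mgam and Slc5a1; none was at 0 in all libraries. Their part in the Slc6a19 result was not tested, and in bulk tissue fewer cells of a type cannot be told apart from less RNA per cell.

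The other SLC6 carriers did not pass any test. Slc6a14 had 450.5, 385 and 459 CPM in PCN and 518, 269 and 343 CPM in Veh, with Veh libraries on both sides of the PCN range (log2 fold change 0.20, SE 0.22; edgeR adjusted p = 0.781). Slc6a6 had 276, 383 and 542 CPM in PCN and 396, 719 and 446 CPM in Veh (log2 fold change -0.38, SE 0.28; edgeR adjusted p = 0.669). The 2 most abundant SLC6 carriers thus varied about as much within a group as between groups. Slc6a9 (GlyT1), a glycine carrier, had 17.7 to 21.9 CPM in PCN and 15.6 to 24.6 in Veh. Slc6a20a, a proline carrier of the apical membrane, had 2.10 to 2.41 CPM in PCN, inside the 1.36 to 4.82 CPM of Veh.

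Both heavy chains were well expressed, and one of them leaned lower. Slc3a1 encodes rBAT, the partner of the cystine and dibasic amino acid carrier Slc7a9, and lies on chr17:85028376-85064236. It had 48.6, 65.2 and 60.1 CPM in PCN against 82.9, 66.6 and 87.6 CPM in Veh. The groups did not overlap, with PCN replicate 5 and Veh replicate 5 almost touching. The log2 fold change was -0.45 (SE 0.14; edgeR unadjusted p = 0.0130, adjusted p = 0.397; DESeq2 adjusted p = 0.153), and DESeq2 without Veh replicate 5 gave -0.56 with an adjusted p of 0.0303. Leaving out any of the other 5 gave 0.161 to 0.686 for Slc3a1 in DESeq2, and edgeR without Veh replicate 5 gave 0.314. Prepl, which overlaps Slc3a1 on the other strand, had 53.2 to 64.4 CPM in PCN and 54.4 to 65.7 in Veh, and whether the counting used strand is not stated. Its light chain Slc7a9 (b0,+AT) showed no such separation, with 6.44 to 12.0 CPM in PCN and 6.51 to 13.3 in Veh (log2 fold change -0.08, SE 0.31). Slc3a2, the heavy chain CD98hc, had 79.7, 98.8 and 112 CPM in PCN and 89.4, 96.1 and 92.5 CPM in Veh (log2 fold change 0.06, SE 0.12; edgeR adjusted p = 0.888). Its Veh libraries lay inside the PCN range.

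Among the 6 light chains, Slc7a5 separated most. It encodes LAT1, which with CD98hc exchanges glutamine for leucine and other large neutral amino acids, and lies on chr8:121881150-121907694. Slc7a5 had 33.7, 37.5 and 42.4 CPM in PCN against 22.3, 28.3 and 27.1 CPM in Veh. Every PCN library was above every Veh library. The log2 fold change was 0.55 (SE 0.14), with an edgeR adjusted p of 0.297 and a DESeq2 adjusted p of 0.0617; DESeq2 without Veh replicate 5 gave 0.61 and 0.0317, where edgeR gave 0.314, and DESeq2 without each of the other 5 libraries gave adjusted p of 0.0632 to 0.244. By edgeR, Slc7a5 RNA was 1.46-fold higher in PCN as a group (95% interval 1.18 to 1.81, not adjusted for the number of genes tested). It did not pass the adjusted test on all 6 libraries in either tool.

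Slc7a6 (y+LAT2), a basolateral exchanger of cationic for neutral amino acids, had 27.4, 25.4 and 28.3 CPM in PCN and 23.9, 25.2 and 23.0 CPM in Veh, which did not overlap by a narrow margin (log2 fold change 0.17, SE 0.11; edgeR adjusted p = 0.614). Slc7a7 (y+LAT1), of the same function, had 44.8, 46.3 and 42.4 CPM in PCN and 42.3, 47.7 and 42.9 CPM in Veh (log2 fold change 0.01, SE 0.09; edgeR adjusted p = 0.992). The 95% interval of Slc7a7 allows changes of 0.865- to 1.17-fold. Oxa1l, which overlaps Slc7a7 on the other strand, had 69.49 to 82.85 CPM in PCN and 88.25 to 92.51 in Veh. As for Slc3a1, whether the counting used strand is not stated, so the Slc7a7 values carry that limit. Slc7a8 (LAT2), a basolateral exchanger of neutral amino acids, had 16.9 to 23.8 CPM in PCN and 22.8 to 27.6 in Veh, overlapping between 22.8 and 23.8 (log2 fold change -0.32, SE 0.16; edgeR unadjusted p = 0.0727).

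Slc7a11 (xCT), which imports cystine in exchange for glutamate, behaved unlike the other light chains. It had 4.18, 4.62 and 15.3 CPM in PCN and 2.86, 7.87 and 5.33 CPM in Veh. PCN replicate 6 was far above the other 5 libraries, which set the log2 fold change of 0.58 (SE 0.55; edgeR adjusted p = 0.742); without that library it was -0.31. The promoter of Slc7a11 holds 2 amino acid response cores, as printed above, and their part in the value of PCN replicate 6 was not tested.

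The same library stood apart in other genes of the amino acid response, which were taken from a list of 32 non-carrier targets. PCN replicate 6 was the highest library in 20 of the 31 list genes tested (64.5%), against 16.0% over all genes. Asns, which makes asparagine, had 53.1, 54.8 and 101 CPM in PCN and 41.3, 57.9 and 47.1 CPM in Veh. Phgdh, the first enzyme of serine synthesis, had 19.7, 17.1 and 48.1 CPM in PCN and 14.4, 12.9 and 10.04 CPM in Veh, and Psat1, the next enzyme, reached 39.7 CPM in PCN replicate 6 against 15.2 to 19.6 in the others. These 3 were named after their values were seen. Atf4 itself did not stand apart, with 208 CPM in PCN replicate 6 and up to 227 CPM in Veh replicate 5. Over the transporters, PCN replicate 6 was highest in 6 of 36 (16.7%), against 16.0% over all genes, and lowest in 0, against 16.4%. Those 6 were Slc7a11, Slc3a2, Slc7a5, Slc7a2, Slc7a6 and Slc15a3. Other carriers known as targets of the response peaked elsewhere: Slc1a4 in PCN replicate 4, Slc7a1 in PCN replicate 5, and Slc38a2 and Slc6a9 in Veh replicate 5. Slc1a4 and Slc7a7, whose promoters also hold the core, were each lowest among the PCN libraries in replicate 6. Of the tested list genes with the core, PCN replicate 6 was the highest library in Aars, Chac1 and Iars. It was not the highest in Nupr1 or Vldlr, and it was the lowest in Atf3. No list gene passed edgeR. DESeq2 called 0 of the 31 higher, against 1.03% of all genes, and 1 lower, against 0.259%: Nupr1, a stress-induced chromatin protein, fell with 262, 353 and 338 CPM in PCN against 492, 492 and 407 CPM in Veh (adjusted p = 0.0266). At an unadjusted edgeR p under 0.05, 8 of the 31 were higher, against 6.25% of all genes, and 1 was lower, against 3.73%. Without overlap, 6 were higher and 1 lower, against 8.69% and 7.39% of all genes. The 6 were Phgdh, Stc2, Nars, Gars, Mars1 and Lars, and PCN replicate 6 was the highest library in all of them but Stc2. Over the list, 24 log2 fold changes were positive and 7 negative (median 0.18), so the lean was not confined to genes that peaked in replicate 6.

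**Figure D3:**
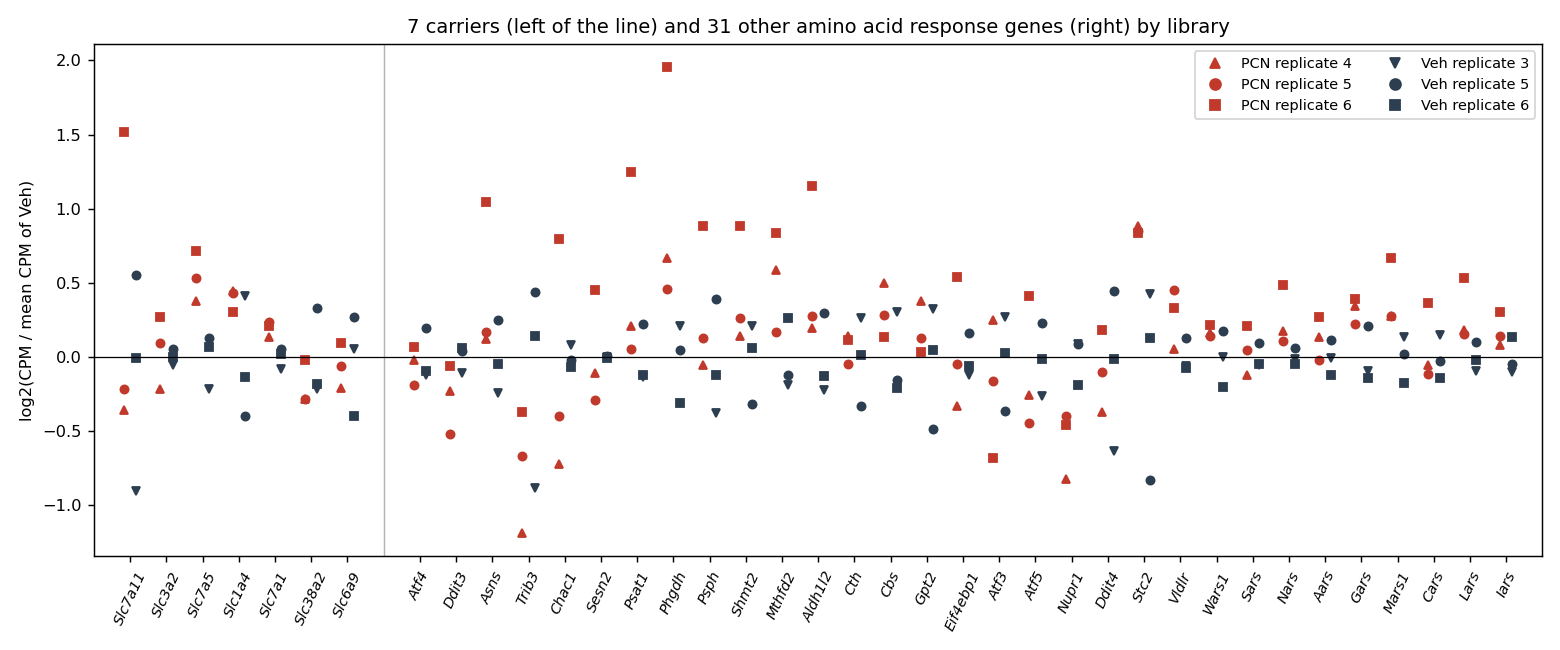
log2 of CPM over the mean CPM of Veh, by library, for 7 carriers known as targets of the amino acid response (left of the line) and 31 other tested targets (right); PCN red, Veh dark, symbols give the replicate. PCN replicate 6 (red squares) was the highest library in 20 of the 31, and of the 7 carriers in Slc7a11, Slc3a2 and Slc7a5 only.

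Both cationic carriers, which move arginine, lysine and ornithine, were measured. Slc7a1 (CAT1), on chr5:148327410-148399904, had 59.6, 63.9 and 62.6 CPM in PCN against 51.3, 56.3 and 54.9 CPM in Veh. Its groups did not overlap, the log2 fold change was small at 0.20 (SE 0.08), and the edgeR adjusted p was 0.489 (unadjusted p = 0.0457; DESeq2 adjusted p = 0.552). Slc7a2 (CAT2), the lower one, had 2.97, 5.24 and 7.03 CPM in PCN and 5.46, 3.79 and 4.71 CPM in Veh (log2 fold change 0.13, SE 0.33; edgeR adjusted p = 0.922).

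The SLC1 family holds sodium-driven glutamate carriers and exchangers of neutral amino acids. Slc1a5 (ASCT2) had 224, 233 and 223 CPM in PCN and 234, 202 and 221 CPM in Veh. Its groups overlapped (log2 fold change 0.05, SE 0.09; edgeR adjusted p = 0.874), and its 95% interval was 0.902- to 1.18-fold. Slc1a4 (ASCT1), an exchanger of alanine, serine and cysteine, had 62.9, 62.3 and 57.1 CPM in PCN and 61.6, 35.2 and 42.2 CPM in Veh (log2 fold change 0.39, SE 0.19; edgeR unadjusted p = 0.0674, adjusted p = 0.520). Veh replicate 3, the library with pancreatic RNA, was as high as PCN; without it, DESeq2 gave 0.64 with an adjusted p of 0.00120, but edgeR gave 0.134. With other libraries left out, DESeq2 gave adjusted p of 0.507 to 0.864 for Slc1a4, and a log2 fold change down to 0.22. The part of that RNA in the Slc1a4 value was not tested. The glutamate carriers Slc1a1 (EAAC1) and Slc1a3 (GLAST) had 10.7 to 18.2 and 3.43 to 5.38 CPM in PCN and 10.6 to 12.6 and 2.10 to 6.08 CPM in Veh.

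**Figure D4:**
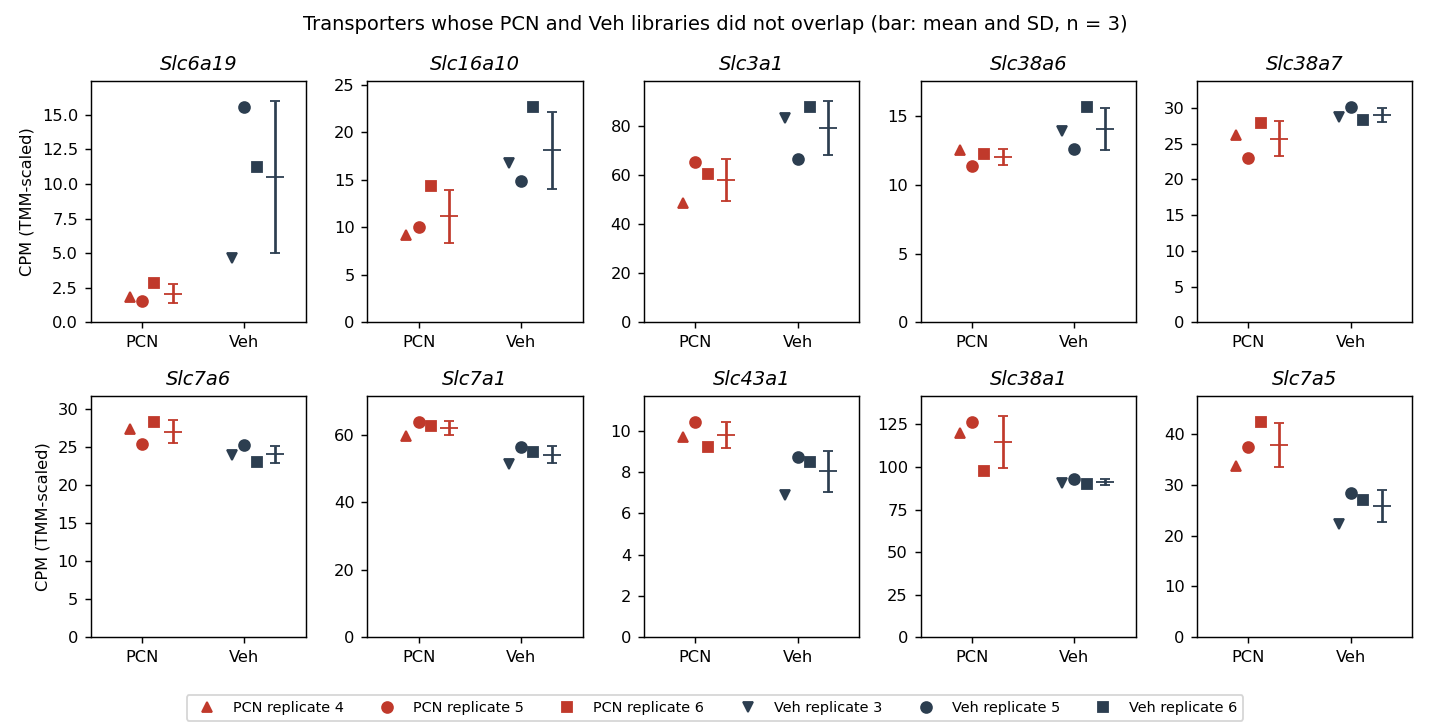
CPM in each library (points) with mean and SD (n = 3) for the 10 transporters whose PCN (red, left) and Veh (dark, right) libraries did not overlap, 5 lower and 5 higher in PCN. All axes start at 0; the gap was wide for Slc6a19 (up to 2.84 CPM in PCN, from 4.68 in Veh) and narrow for Slc7a6 and Slc38a6.

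The SLC38 family (SNATs) carries glutamine and other neutral amino acids at the plasma membrane or the lysosome. Slc38a1 (SNAT1), on chr15:96571418-96642913, had 119.8, 127 and 97.6 CPM in PCN against 90.7, 93.0 and 90.1 CPM in Veh. The groups did not overlap, PCN replicate 6 being nearest to the tight Veh libraries. The log2 fold change was 0.33 (SE 0.11; edgeR unadjusted p = 0.0144, adjusted p = 0.400; DESeq2 adjusted p = 0.279), and DESeq2 without PCN replicate 6 gave 0.42 with an adjusted p of 0.0147. Slc38a1 did not pass in DESeq2 without any of the other 5 libraries (0.323 to 0.722), nor in edgeR without PCN replicate 6 (0.253). Slc38a2, the more abundant SNAT per gene length, had 268, 268 and 321 CPM in PCN and 281, 411 and 287 CPM in Veh (log2 fold change -0.19, SE 0.16; edgeR adjusted p = 0.702). Its groups overlapped, Veh replicate 5 being the highest library.

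Some SNATs leaned lower. Slc38a9, the lysosomal arginine sensor that signals to mTORC1, had 23.7, 28.6 and 24.1 CPM in PCN and 30.7, 28.6 and 33.6 CPM in Veh, so that PCN replicate 5 and Veh replicate 5 met at 28.6 CPM (log2 fold change -0.28, SE 0.12; edgeR unadjusted p = 0.0484, adjusted p = 0.496). Slc38a7 (SNAT7), which exports glutamine from lysosomes, had 26.2, 23.0 and 27.8 CPM in PCN against 28.7, 30.1 and 28.3 CPM in Veh, without overlap (log2 fold change -0.18, SE 0.11; edgeR adjusted p = 0.617). Slc38a6 had 12.5, 11.4 and 12.2 CPM in PCN against 13.9, 12.6 and 15.7 CPM in Veh, also without overlap (log2 fold change -0.22, SE 0.15; edgeR adjusted p = 0.635). These differences were small, and none passed an adjusted test. Slc38a10 had 141, 133 and 132 CPM in PCN and 131.5, 141 and 138 CPM in Veh (log2 fold change -0.02, SE 0.08; edgeR adjusted p = 0.957), with the smallest spread of the 36 transporters tested (highest over lowest library 1.07), and Slc38a4 had 0.763 to 2.50 CPM in PCN and 1.37 to 2.59 in Veh.

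The uniporters pass aromatic or branched-chain amino acids down their gradient, mostly at the basolateral side. Slc16a10 (TAT1), the carrier of aromatic amino acids, on chr10:40033532-40142258, had 9.16, 9.99 and 14.4 CPM in PCN against 16.8, 14.9 and 22.7 CPM in Veh. The groups did not overlap, though PCN replicate 6 came close to Veh replicate 5. The log2 fold change was -0.70 (SE 0.23; edgeR unadjusted p = 0.0149, adjusted p = 0.403; DESeq2 adjusted p = 0.126), and DESeq2 without PCN replicate 6 gave -0.94 with an adjusted p of 0.0112. The remaining DESeq2 fits without 1 library gave Slc16a10 0.0885 to 0.705, with log2 fold changes of -0.83 to -0.52, and edgeR without PCN replicate 6 gave 0.274. Slc43a1 (LAT3) leaned the other way, with 9.72, 10.4 and 9.23 CPM in PCN against 6.91, 8.74 and 8.47 CPM in Veh (log2 fold change 0.28, SE 0.17; edgeR adjusted p = 0.599). Slc43a2 (LAT4) had 28.4, 36.3 and 43.6 CPM in PCN and 44.9, 39.2 and 45.7 CPM in Veh (log2 fold change -0.26, SE 0.16; edgeR adjusted p = 0.594). Slc43a3, which carries purine nucleobases rather than amino acids and was kept as the list gave it, had 38.1, 62.5 and 68.2 CPM in PCN and 57.6, 101 and 74.2 CPM in Veh (log2 fold change -0.47, SE 0.25; edgeR adjusted p = 0.564).

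The peptide carriers differed more between libraries than between groups. Slc15a2 (PEPT2), the high-affinity proton-driven carrier of di- and tripeptides, on chr16:36750177-36784962, had 20.4, 6.40 and 11.9 CPM in PCN and 1.68, 1.07 and 36.6 CPM in Veh. Veh replicate 6 was the highest of all and the other Veh libraries were the lowest, a 34.1-fold range. Of 10290 tested genes with a mean of at least 10 CPM, Slc15a2 was the only 1 with so wide a range. Its log2 fold change was -0.03 (SE 1.10; edgeR adjusted p = 0.998). Without Veh replicate 6 it was 3.23 in edgeR (adjusted p = 0.249) and 3.22 in DESeq2 (adjusted p = 4.5e-07), so that 1 library decided the value. The lncRNA gene ENSMUSG00000120777, inside the span of Slc15a2 on the same strand by the deposited coordinates, had 2.69, 0.908 and 0.890 CPM in PCN and 0.227, 0.247 and 2.86 CPM in Veh. It was high and low in nearly the same libraries.

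Slc15a1 (PEPT1), the low-affinity apical peptide carrier of the small intestine, on chr14:121459621-121505252, had 26.2, 16.7 and 15.3 CPM in PCN and 13.0, 42.0 and 30.0 CPM in Veh. Veh libraries were both lowest and highest (log2 fold change -0.55, SE 0.39; edgeR adjusted p = 0.656), and DESeq2 without Veh replicate 3 gave -0.91 with an adjusted p of 0.0489. That call was not reached by edgeR without the same library (adjusted p = 0.283) or by DESeq2 without any of the others (0.595 to 0.951), and without Veh replicate 5 the DESeq2 value was -0.15. Of 8 posterior Hox genes, which mark position along the gut, Hoxa13 was high and low in much the same libraries, with 42.0, 29.2 and 15.1 CPM in PCN and 15.4, 51.0 and 28.9 CPM in Veh. This gene was picked after its values were seen, and others of the list ran the other way: Hoxd10 had 3.98, 7.06 and 7.54 CPM in PCN and 9.64, 4.62 and 6.47 CPM in Veh. The list summed to 66.4 to 145 CPM in PCN and 71.2 to 133 CPM in Veh, mostly from Hoxa10 and Hoxa13, with Hoxd12 at or under 0.0784 CPM. Their part in the Slc15a1 values was not tested. Slc15a4 (PHT1), a lysosomal carrier of histidine and peptides, had 25.5, 22.9 and 19.6 CPM in PCN and 24.3, 17.2 and 24.1 CPM in Veh, which overlapped (log2 fold change 0.05, SE 0.17; edgeR adjusted p = 0.945). Slc15a3 (PHT2), of the same function, had 5.18 to 10.2 CPM in PCN and 6.80 to 8.04 CPM in Veh. Both are known from immune cells, and the 10 macrophage markers summed to 396 to 542 CPM in PCN and 252 to 480 CPM in Veh. The part of such cells in these values was not tested. Glt1d1, which overlaps Slc15a4 on the other strand, had 20.24 to 27.45 CPM in PCN and 22.82 to 27.25 in Veh. Tmem132a, which overlaps Slc15a3 on the other strand, had 5.89 to 7.39 CPM in PCN and 7.21 to 7.64 in Veh.

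**Figure D5:**
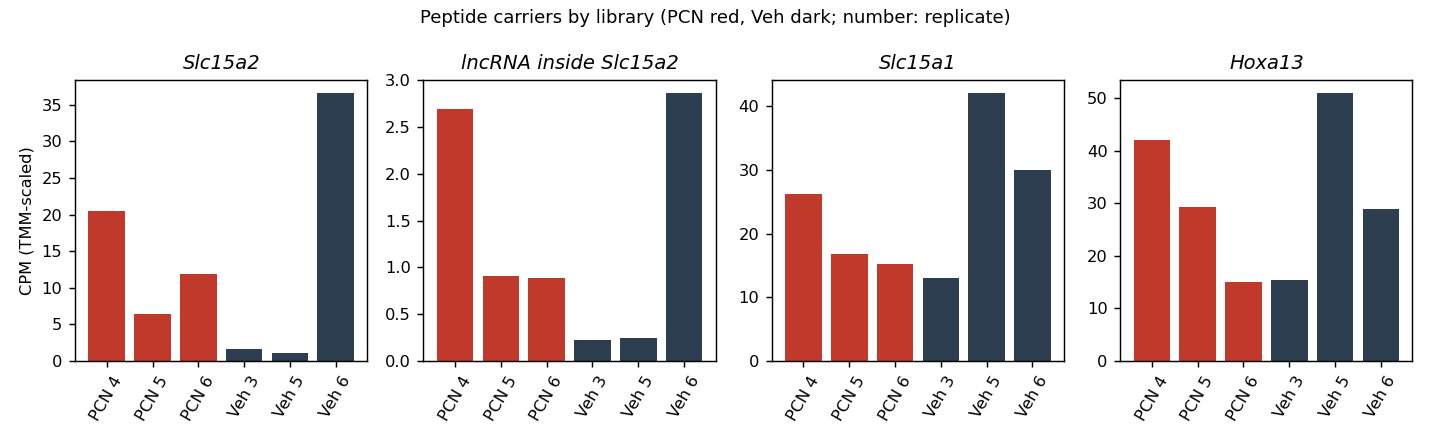
CPM in each library (bars from 0; PCN red, Veh dark, number gives the replicate) of Slc15a2, the lncRNA inside it, Slc15a1 and the distal gut gene Hoxa13. Slc15a2 ran from 1.07 CPM in Veh replicate 5 to 36.6 CPM in Veh replicate 6.

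The proton-coupled carriers, which export small amino acids from lysosomes or take them up at the apical membrane, overlapped between the groups. Slc36a1 (PAT1) had 57.5, 58.1 and 68.7 CPM in PCN and 61.1, 73.3 and 69.9 CPM in Veh (log2 fold change -0.15, SE 0.11; edgeR adjusted p = 0.663). Slc36a4 (PAT4) had 35.5, 39.5 and 38.1 CPM in PCN and 31.4, 39.1 and 28.2 CPM in Veh (log2 fold change 0.20, SE 0.14; edgeR adjusted p = 0.640). The 95% intervals, 0.758- to 1.07-fold for Slc36a1 and 0.925- to 1.42-fold for Slc36a4, leave room for modest changes.

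Genes on either side of transport were counted from lists. Of 33 other amino acid carriers of the plasma membrane or vesicles, 20 were tested and edgeR and DESeq2 called 0; at an unadjusted edgeR p under 0.05, 0 were higher and 1 lower, against 6.25% and 3.73% of all genes. Of 7 mitochondrial amino acid carriers tested, Slc25a44, which takes branched-chain amino acids into mitochondria, fell by DESeq2 (adjusted p = 0.0439; edgeR adjusted p = 0.260), with 56.0, 53.2 and 56.4 CPM in PCN against 68.7, 79.8 and 69.3 CPM in Veh; DESeq2 called 0.259% of all genes lower. At an unadjusted edgeR p under 0.05, 1 of the 7 was lower and 2 were higher, against 3.73% and 6.25% of all genes. The 2 were Slc25a13 (log2 fold change 0.22) and Slc25a15 (0.27), carriers of aspartate with glutamate and of ornithine, whose groups did not overlap. Without overlap, 2 of the 7 were higher and 1 lower, against 8.69% and 7.39% of all genes. Of 31 genes that sense amino acids for mTORC1, both tools called 0. At an unadjusted edgeR p under 0.05, 1 was higher and 1 lower, against 6.25% and 3.73% of all genes. Without overlap, 3 of the 31 were higher and 5 lower, against 8.69% and 7.39% of all genes. Of their log2 fold changes, 8 were positive and 23 negative (median -0.07).

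Among 31 enzymes of amino acid metabolism, DESeq2 called 3 higher, against 1.03% of all genes, and 0 lower, against 0.259%, and edgeR called 0. By edgeR's unadjusted p under 0.05 there were 4 higher and 2 lower, against 6.25% and 3.73% of all genes. Pycr1, which completes proline synthesis, had 18.7, 13.7 and 12.9 CPM in PCN against 8.41, 5.11 and 7.18 CPM in Veh (log2 fold change 1.13, SE 0.24; DESeq2 adjusted p = 0.00172). Aldh18a1, which starts proline synthesis from glutamate, had 74.2, 65.4 and 85.8 CPM in PCN against 49.2, 49.5 and 51.6 CPM in Veh (log2 fold change 0.58, SE 0.11; DESeq2 adjusted p = 0.00685). Odc1, which makes the polyamine putrescine from ornithine, had 211, 176 and 181 CPM in PCN against 126, 130.3 and 138 CPM in Veh (log2 fold change 0.52, SE 0.10; DESeq2 adjusted p = 0.00237). In all 3, every PCN library was above every Veh library, while edgeR's adjusted p was 0.172 to 0.205. Over the whole list, 6 of the 31 enzymes were higher without overlap and 5 lower, against 8.69% and 7.39% of all genes.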

How the data were processed

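Colon RNA from 6 libraries was analysed. The deposited counts are reads per gene that the authors made, per the study's methods, with STAR and HTSeq after removing adapters and low-quality reads; versions are not given in the sources used here. Deposited FPKM values scale those counts by gene length and library size. The genome is given as mm10 in the labels and as a pig assembly in the methods, while genes carry Ensembl mouse identifiers. The labels name a SMARTER kit and the methods poly-A TruSeq, and strandedness is not stated. Whether strand was used to separate genes that overlap on opposite strands is therefore unknown. Of the 38 members, 19 overlap another annotated gene on either strand, and some of these overlaps are on the same strand, which strand cannot separate. The authors' log2 fold change, p-value and regulation columns for PCN against Veh were not used.

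Counts were scaled by TMM and tested with edgeR 4.0.16 in R 4.3.3 (filterByExpr, minimum count 10 and minimum total 15; glmQLFit and glmQLFTest), with Benjamini-Hochberg adjustment over 16586 genes and a threshold of 0.05. The standard error is the log2 fold change over the square root of F. Alternatives were DESeq2 1.42.0, RLE size factors, no filter, a replicate block, limma 3.58.1 on log2(FPKM + 1) and log2(FPKM + 0.1), and each library left out. Total counts of 21924026 to 25422856 leave transporters under about 1 CPM imprecise; no 2 libraries agreed within sampling noise. Fits were tested on simulated data. Coordinates come from GENCODE M21 (GRCm38) by identifier, which held 22267 of 23282 identifiers and all 38 members; the deposited start and end equalled it for 0 members and were used only to place the lncRNA within Slc15a2. Sequences are from RefSeq (GRCm38.p6).

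The members and lists were chosen with earlier results of these data known. All 38 members are given by role: first those that pass edgeR or DESeq2, then those with an unadjusted p under 0.05 or groups that do not overlap, then the 2 highest by FPKM in each role, with their libraries; from each pathway list, genes that pass. Outside that rule, the library values of Slc15a2 and Slc7a11, and Asns, Phgdh, Psat1, Atf4, Slc25a13, Slc25a15, Hoxa13, Hoxd10, the genes overlapping members and the cell type markers printed, were chosen after values were seen. The amino acid response genes named for the core or as higher without overlap were also outside it, and each of these sets is complete. A pathway gene is left out of the text.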

Additional observations from a re-analysis of the deposited data

How the results depend on the processing

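Of the 36 transporters tested, 20 kept the sign of their log2 fold change in every one of up to 19 settings. The count of transporters lower at an adjusted p under 0.05, 0 in edgeR, was 1 (Slc6a19) in DESeq2, with the replicate block and in DESeq2 on all genes, and 0 to 2 when edgeR or DESeq2 left out a library; the count higher, 0, was 0 to 1 there. DESeq2 on all genes and without each library were added after seeing the data. At an unadjusted p the count higher, 3, was 1 in limma at both pseudocounts and 1 to 4 without a library, and the count lower, 4, was 1 to 6. The transporters' median log2 fold change of -0.022 was -0.201 to 0.021. Signs turned with the replicate block for Slc1a1 (-0.076), Slc1a3 (0.245), Slc7a7 (-0.032), Slc6a9 (0.079) and Slc15a2 (0.215). Limma on log2(FPKM + 1) and log2(FPKM + 0.1) turned Slc7a7 (-0.036 and -0.039), Slc15a2 (0.349 and 1.142), Slc15a3 (-0.015 and -0.041) and Slc38a4 (-0.011 and -0.077), and the second also Slc1a3 (0.016). Slc7a7 was -0.010 in DESeq2 and with RLE size factors, and -0.011 without a filter and in DESeq2 on all genes. Over the libraries left out, in both tools, the ranges that crossed 0 were -0.014 to 0.400 for Slc1a1, -0.386 to 0.221 for Slc1a3, -0.014 to 0.098 for Slc1a5, -0.072 to 0.185 for Slc3a2, -0.045 to 0.062 for Slc7a7, -0.364 to 0.230 for Slc7a9, -0.305 to 0.966 for Slc7a11, -0.196 to 0.400 for Slc7a2, -0.236 to 0.103 for Slc6a9, -0.005 to 0.496 for Slc6a14, -0.574 to 3.231 for Slc15a2, -0.207 to 0.273 for Slc15a3, -0.105 to 0.132 for Slc15a4, -0.308 to 0.009 for Slc38a2, -0.291 to 0.393 for Slc38a4 and -0.064 to 0.004 for Slc38a10. The cause of these shifts was not tested. Replicate numbers 5 and 6 occur in both groups. Deviations of libraries with the same number correlated at -0.15 and -0.09, and those with different numbers at -0.11 to 0.16. With deviations taken from group means of 3 libraries and only 2 such pairs, these values cannot decide whether the numbers pair libraries. With the block edgeR called 64 genes higher and 10 lower, against 5 and 1 without it. Without a filter it called 25 and 2 of 23282. With 3 libraries a group and 0 to 11 counts, Slc38a3 and Slc38a5 could not be compared, and a carrier such as Slc15a2, whose interval runs from -2.56 to 2.51, could change several-fold without being called.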
